A study of Mus musculus with 10 samples.

Results

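The transcripts described here encode voltage-gated sodium, potassium and calcium channels, 36 genes out of the 48709 identifiers counted. They were chosen by symbol through the GENCODE M21 annotation, 7 for sodium, 16 for potassium and 13 for calcium channels, and divided into 22 pore-forming subunits and 14 auxiliary subunits. RNA came from hippocampal neurons of mice, grown as primary cultures for 10 days in vitro. Cultures had received either tunicamycin at 2 ug/mL or its solvent DMSO, in both cases for 6 h, giving 6 tunicamycin and 4 DMSO libraries. The labels name no strain, genotype, age or animal for either group. Tunicamycin blocks N-linked glycosylation, so that glycoproteins misfold in the endoplasmic reticulum (ER), and the comparison addresses how such ER stress changes the transcripts of these cultures. All 36 symbols matched 1 identifier each, and 35 passed the filter on low counts.

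Voltage-gated channels open and close with the membrane potential and so shape the threshold, form and frequency of action potentials and the calcium entry that drives transmitter release. Each channel is built around a large pore-forming subunit with its voltage sensor. Auxiliary subunits bind the pore and set its gating and its delivery to the cell surface. Pore subunits, sodium channel beta subunits and the Cacna2d proteins are made at the ER, whereas the Kcnab, Kcnip and Cacnb subunits are cytosolic proteins that bind the channel from inside. The name is loose for some members, since Kcnn2 is opened by calcium and not by voltage and Hcn2 passes sodium as well as potassium.

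Promoter windows show the sequences upstream of the members with the largest changes. Of the 36 members, 29 had at least 1 window among those taken from the RefSeq table (GRCm38.p6), 46 windows in all. Each ran from 250 bases before a transcription start to 50 after it. Windows of Kcnn2 were not among those taken, so 29 and 46 need not be all that the table holds. The member counts and medians below do not cover Kcnn2. Windows of the largest falls (Scn2b and Kcna2), of the largest rises (Kcna4 and Cacnb2) and of Kcnab2, which holds a match to an unfolded protein response element, are given 5′ to 3′ on the gene's strand, with every CpG dinucleotide in capitals. They lie at chr9:45117626-45117925 (plus strand), chr3:107101317-107101616 (plus), chr2:107290339-107290638 (plus), chr2:14604056-14604355 (plus, the first of 2 windows of this gene) and chr4:152477500-152477799 (minus, the outermost of 3 windows).
Scn2b: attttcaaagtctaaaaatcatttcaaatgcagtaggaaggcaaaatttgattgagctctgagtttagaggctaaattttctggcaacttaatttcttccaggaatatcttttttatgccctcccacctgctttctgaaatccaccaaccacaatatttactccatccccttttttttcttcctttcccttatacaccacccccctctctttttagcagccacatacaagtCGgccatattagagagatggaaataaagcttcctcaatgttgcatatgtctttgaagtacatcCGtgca
Kcna2: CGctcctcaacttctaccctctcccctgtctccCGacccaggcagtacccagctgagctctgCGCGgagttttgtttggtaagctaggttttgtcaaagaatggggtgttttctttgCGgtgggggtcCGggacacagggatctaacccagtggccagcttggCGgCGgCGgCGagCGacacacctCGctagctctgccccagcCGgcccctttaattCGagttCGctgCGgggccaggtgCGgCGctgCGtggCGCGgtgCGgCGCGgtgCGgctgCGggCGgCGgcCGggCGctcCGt
Kcna4: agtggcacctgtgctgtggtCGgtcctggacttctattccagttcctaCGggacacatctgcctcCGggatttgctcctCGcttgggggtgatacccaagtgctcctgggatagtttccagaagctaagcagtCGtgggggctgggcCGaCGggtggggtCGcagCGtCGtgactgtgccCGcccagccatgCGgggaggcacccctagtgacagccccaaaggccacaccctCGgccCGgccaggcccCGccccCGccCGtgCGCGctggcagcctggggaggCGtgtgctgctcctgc
Cacnb2: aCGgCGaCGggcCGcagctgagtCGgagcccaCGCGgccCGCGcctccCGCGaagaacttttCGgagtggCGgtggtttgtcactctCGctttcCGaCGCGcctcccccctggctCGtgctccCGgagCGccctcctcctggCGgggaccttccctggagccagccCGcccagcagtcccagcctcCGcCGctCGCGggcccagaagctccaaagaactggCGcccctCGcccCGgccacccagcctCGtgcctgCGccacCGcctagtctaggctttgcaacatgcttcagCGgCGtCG
Kcnab2: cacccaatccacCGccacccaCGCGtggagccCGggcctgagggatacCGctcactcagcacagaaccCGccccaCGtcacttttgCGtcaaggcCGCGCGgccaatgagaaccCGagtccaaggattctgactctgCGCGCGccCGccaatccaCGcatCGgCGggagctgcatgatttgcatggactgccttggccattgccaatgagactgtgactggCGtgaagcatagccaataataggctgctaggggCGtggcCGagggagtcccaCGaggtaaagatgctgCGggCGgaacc

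The windows of the members with the largest falls were unlike each other. The Scn2b window held 2 CpG dinucleotides at 38.3% GC, and the Kcna2 window held 31 at 66.7% GC. Those of Kcna4 (20 CpG) and Cacnb2 (35 CpG) lay on both sides of Kcna2. Over all 46 member windows the median was 18 CpG and 63.3% GC, against 7 CpG and 52.7% GC over all windows in the table.

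Elements known from stress responses and neuronal genes were searched for in these windows, from a list chosen after the values were seen. On both strands, the ER stress response element, CCAAT and CCACG with 9 bases between them, was found in 0 of 46 windows, where 0.119% of 32841 windows hold it. The unfolded protein response element TGACGTGG was found in 1, the Kcnab2 window above, as CCACGTCA from base 73 to base 80 counted from the window's 5′ end (0.676% of all windows). TGATGNAA, the core shared by C/EBP-ATF composite sites, was found in 2 (3.97%), the AP-1 element TGANTCA in 1 (7.81%), and the cyclic AMP response element TGACGTCA in 0 (1.79%). The EGR element GCGTGGGCG (0.612%) and the left part of the REST element, TTCAGCACC (0.371%), were found in 0 windows, the TATA box TATAAA in 3 (13.6%) and the GC box GGGCGG in 22 (35.7%). A match gives letters only, and binding was not measured.

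Depth was 2.11e+07 to 2.92e+07 counts per library, and the labels name no separate culture or animal behind each library, so the spread behind the p-values may be technical. Each tested member had between 163 and 12897 counts in every library. The label of neurons was checked on 12 pan-neuronal markers, which summed to 7833 to 8317 CPM (counts per 1e+06 counts of the library) with DMSO and 6626 to 6975 CPM with tunicamycin, without overlap. Of these 12 markers 10 fell and none rose (median -0.19 on the log2 scale). The cultures also held 11 astrocyte markers at a sum of 3262 to 3667 CPM with DMSO and 2232.5 to 2470.5 CPM with tunicamycin. All 11 fell (median log2 fold change -0.73). Markers of microglia summed to 16.5 to 20.3 CPM with DMSO and 11.9 to 14.5 CPM with tunicamycin, and those of the oligodendrocyte lineage to 191.5 to 241.1 and 121.6 to 146.8 CPM. Excitatory neuron markers summed to 2732 to 3129 CPM with DMSO and 2588 to 2709 CPM with tunicamycin, those of interneurons to 1207 to 1338 and 1113 to 1225 CPM, and endothelial and mural markers to 122.2 to 213.4 and 124.6 to 185.1 CPM. No marker of these 7 lists was at 0 in all libraries. Their part in the results below was not tested, and in whole cultures fewer cells of a type and less RNA per cell cannot be told apart.

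The DMSO library labelled replicate 1 stood apart for long channel transcripts. Among the 15 tested members with at least 10 kb of exon, it was the lowest DMSO library for 14, with a median deviation from the group mean of -0.16 on the log2 scale. Among the 20 shorter members it was the lowest for 8, with a median deviation of -0.0054. Tunicamycin replicate 1 deviated the other way, by a median of 0.093 for the long members. The same pattern was seen over all tested genes, since the 1470 genes with at least 10 kb of exon deviated by a median of -0.071 in DMSO replicate 1 and 0.063 in tunicamycin replicate 1. The members most affected in DMSO replicate 1 were Kcnh7, Kcnq3, Scn1a and Kcnma1. DMSO replicate 2 was the highest DMSO library for 15 of the 35 tested members, with a median deviation of 0.097 for the long ones.

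**Figure D1:**
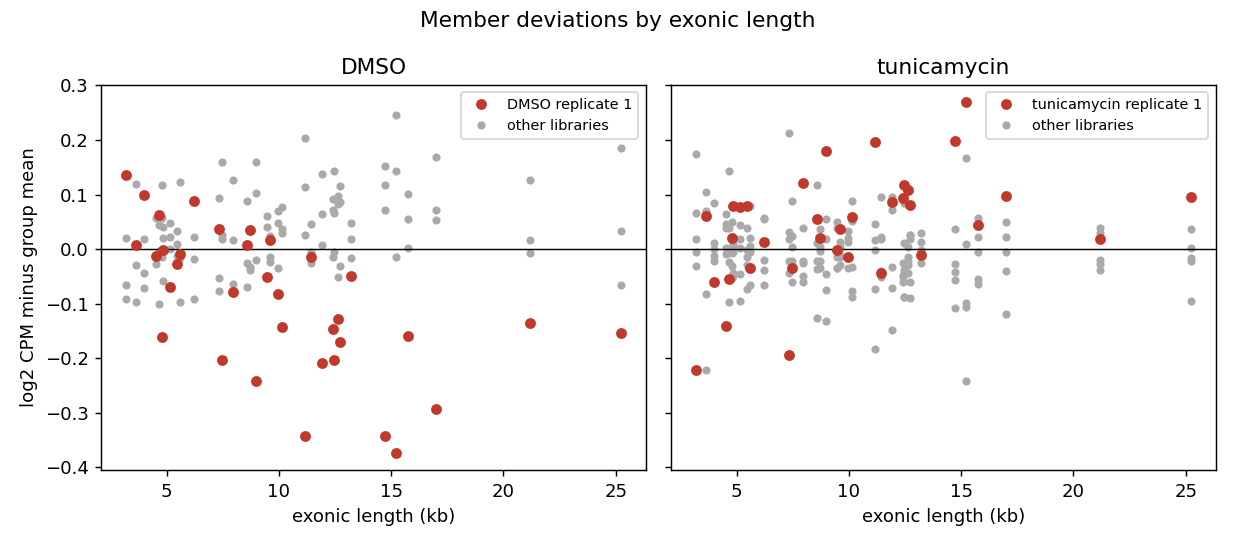
Log2 CPM of each tested member minus its group mean (vertical axis) against the member's exonic length in kb (horizontal axis), in 4 DMSO libraries (left) and 6 tunicamycin libraries (right), with replicate 1 of each group in red. For the 15 members of at least 10 kb, DMSO replicate 1 lies at a median of -0.16, and for the 20 shorter members it is near 0.

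More channel transcripts fell than rose, by small amounts. Of the 35 tested members, 19 fell, 5 rose and 11 did not pass the edgeR test. Over all 15660 genes tested, 32.5% fell, 31.8% rose and 64.3% passed in either direction, so the share of members called, 68.6%, was near the background. The members had a median log2 fold change of -0.11, against -0.02 over all genes and -0.19 over the pan-neuronal markers. Summed over the 36 members, the level was 3784 ± 187.6 CPM (SD, n = 4) with DMSO and 3469 ± 66.0 CPM (SD, n = 6) with tunicamycin. The DMSO libraries ran from 3518 to 3946 CPM and the tunicamycin libraries from 3387 to 3580 CPM. These sums overlapped through DMSO replicate 1 alone, since the other 3 DMSO libraries were at 3798 to 3946 CPM. The sums by ion and by class that overlapped did so through this library as well.

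Few members moved far. A fall of at least 1.25-fold was called for 5 members (Scn2b, Kcna2, Kcnn2, Cacna1g and Kcnh1), where the background is 17.7%, and a rise of that size for none (background 19.3%), the largest rise being 1.25-fold after rounding, for Cacnb2, which passed the line in some alternatives. Without DMSO replicate 1 there were 6 such falls, with Scn2a (-0.37) and Kcnq3 (-0.32) past the line and Kcnh1 (-0.32) just short of it. A fall of at least 2-fold was called for Scn2b alone (background 2.13%), and no member rose by 2-fold (background 2.78%). Kcna2 (-0.98) was just short of 2-fold. Without DMSO replicate 1 (-1.04), Kcna2 was past it, for a count of 2. The same held with upper-quartile factors (-1.09), with GC and length offsets (-1.08) and with the replicate number as a block. The groups did not overlap for 15 tested members (background 50.9%), with tunicamycin below DMSO in 12 (background 23.9%) and above it in 3 (background 27.0%). The choice of scaling shifts these counts: with upper-quartile factors 26 members fell and 3 rose, with 14 lower by at least 1.25-fold, while over all genes 6934 fell and 3632 rose and the median over all genes shifted from -0.02 to -0.13 on the log2 scale. The members' median then went to -0.22. Without DMSO replicate 1 the median of the members was -0.16, with 20 lower and 5 higher. Leaving out DMSO replicate 2 gave -0.11, with 15 lower and 5 higher, and leaving out DMSO replicate 3 gave -0.099, with 16 lower and 3 higher. The replicate number as a block gave -0.13, with 14 lower and 3 higher.

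**Figure D2:**
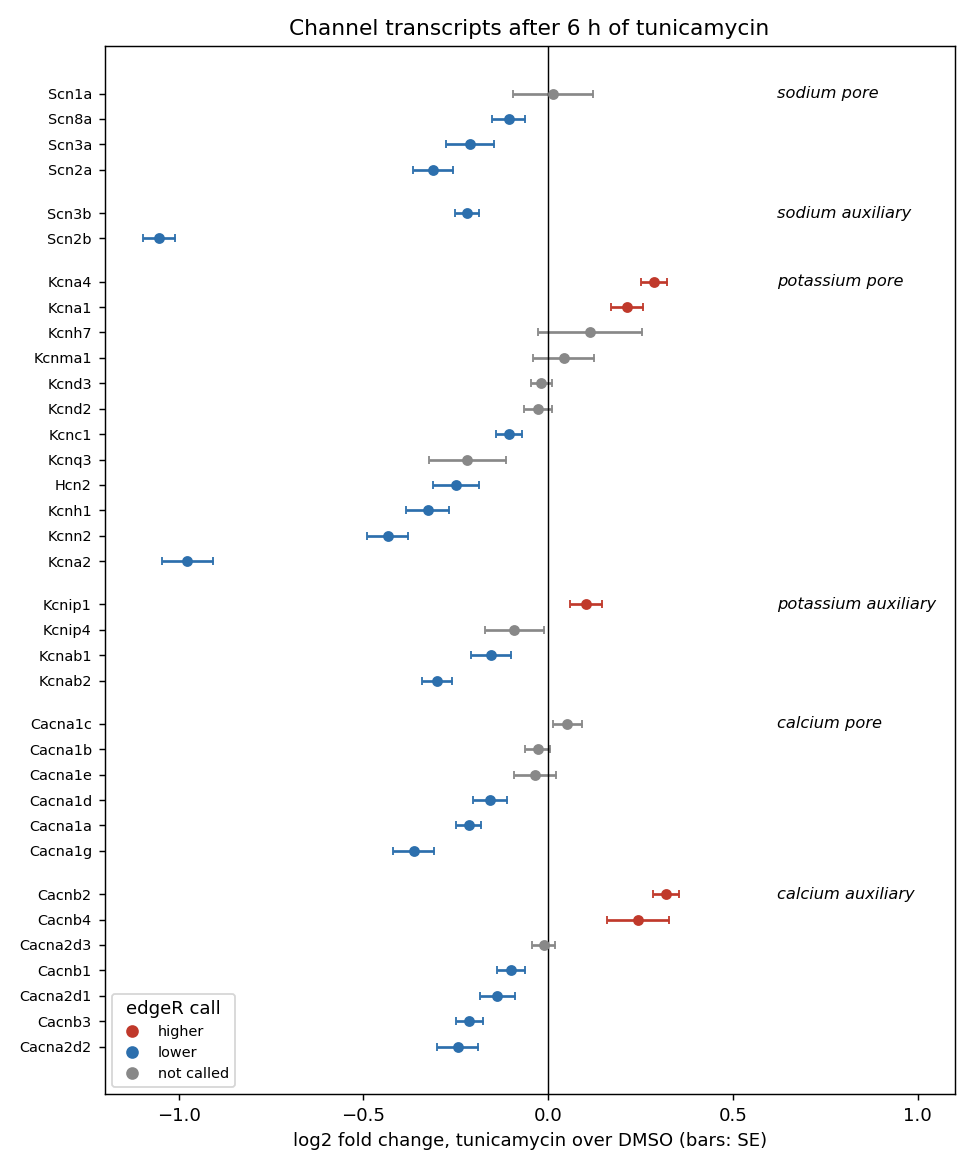
Log2 fold change of each of the 35 tested members, tunicamycin over DMSO, with its standard error from edgeR (horizontal axis), grouped by ion and subunit role (vertical axis) and coloured by call. Apart from 2 genes the points lie between -0.43 and 0.32, with Scn2b and Kcna2 apart at -1.05 and -0.98.

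Among sodium channel genes nothing rose, and an auxiliary subunit fell the most. Of the 6 tested, 5 fell (background 32.5%), with a median log2 fold change of -0.22. Summed over the 7 listed genes, the level was 998.7 ± 66.1 CPM with DMSO (SD, n = 4) and 822.1 ± 28.3 CPM with tunicamycin (SD, n = 6), a ratio of 0.823. The highest tunicamycin library, at 865.5 CPM, lay below the lowest DMSO library, at 909.1 CPM. The 2 tested auxiliary genes had a median of -0.64 and the 4 pore genes one of -0.16.

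Scn2b encodes a single-pass beta subunit with an immunoglobulin-like domain, linked to the pore by a disulfide bond (ENSMUSG00000070304, chromosome 9, 45117782 to 45130070, plus strand, GRCm38). In the DMSO libraries, replicates 1 to 4, it was at 97.3, 93.0, 86.9 and 96.1 CPM, and with tunicamycin Scn2b ran from 42.2 to 49.9 CPM, with a median of 44.7. The groups were far apart, and no library came near those of the other treatment. Its mean was 93.3 ± 4.66 CPM (SD, n = 4) with DMSO and 45.2 ± 2.68 CPM (SD, n = 6) with tunicamycin, a log2 fold change of -1.05 ± 0.043 (SE; edgeR adjusted p = 5.03e-15). The libraries came from 3 sequencing lanes, each holding both groups with 1 or 2 libraries of each, and in lanes 1, 2 and 3 alone the log2 fold change was -1.11, -1.02 and -1.02. Its promoter window is the CpG-poor one shown above.

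Scn3b, a beta subunit that binds the pore without a disulfide bond, fell less (ENSMUSG00000049281, chromosome 9, 40269217 to 40291618, plus strand). Its DMSO libraries were at 147, 153, 151 and 149 CPM, and with tunicamycin Scn3b ran from 123 to 137 CPM, with a median of 129. The highest tunicamycin library lay below the lowest DMSO library. With tunicamycin it had a log2 fold change of -0.22 ± 0.034 (SE; edgeR adjusted p = 6.41e-06). In each DMSO library Scn2b had 0.576 to 0.662 of the CPM of Scn3b, and in each tunicamycin library 0.317 to 0.375. This ratio, chosen after the values were seen, does not depend on the scaling between libraries. On a per-length scale, in CPM per kb of exon, Scn3b (27.5 ± 0.502 with DMSO) lay above Scn2b, at a mean of 20.0, in all 4 DMSO libraries. Scn4b was at or near the limit of detection, with 0 to 11 counts per library, and was not tested. The authors' deposited table lists Scn4b as lower, with a log2 fold change of -1.10 and an adjusted p of 0.0405, while here the CPM of both groups overlapped.

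Scn2a, the main pore subunit of young axons and of excitatory neurons, was the most abundant sodium channel transcript per length in these cultures (ENSMUSG00000075318, chromosome 2, 65620771 to 65767447, plus strand). DMSO libraries were at 399, 477, 439.9 and 487 CPM, and with tunicamycin Scn2a ran from 343 to 386 CPM, with a median of 371. No tunicamycin library reached the lowest DMSO library, which was replicate 1. The mean was 451 ± 39.6 CPM (SD, n = 4) with DMSO and 365 ± 15.9 CPM (SD, n = 6) with tunicamycin, a log2 fold change of -0.31 ± 0.053 (SE; edgeR adjusted p = 0.000106), and without DMSO replicate 1 the log2 fold change was -0.37. Per kb of exon, Scn2a stood at 35.4 ± 3.11 with DMSO, followed by Scn8a of mature axons (11.03 ± 0.847), the embryonic-type Scn3a (7.32 ± 0.731) and the interneuron-rich Scn1a (3.52 ± 0.548). No neighbours in this order overlapped among the DMSO libraries. Scn2a made up 61.8 ± 0.723% of the summed per-length level of these 4 genes with DMSO (SD, n = 4) and 58.6 ± 0.905% with tunicamycin (SD, n = 6).

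The other pore subunits had smaller log2 fold changes. Scn3a fell by 0.21 on the log2 scale (edgeR adjusted p = 0.0115) with overlapping groups, and without DMSO replicate 1 the groups did not overlap and the log2 fold change was -0.28. With GC and length offsets it was -0.33. The call of Scn3a was lost with the replicate number as a block (-0.19, edgeR adjusted p = 0.0851). Taken by itself, lane 1 gave a log2 fold change of -0.033 for Scn3a, lane 2 gave -0.28 and lane 3 gave -0.40. Scn8a fell by 0.11 on the log2 scale (edgeR adjusted p = 0.0385), and without DMSO replicate 1 the change was -0.16 and the groups did not overlap. Leaving out any 1 of 7 other libraries ended the call of Scn8a, with the adjusted p reaching 0.169 without DMSO replicate 2. DESeq2 (adjusted p = 0.0601) and the replicate number as a block (edgeR adjusted p = 0.0990) ended it too. Scn1a did not pass (log2 fold change 0.014 ± 0.11, edgeR adjusted p = 0.921). Its DMSO libraries were at 30.7, 42.0, 39.5 and 44.7 CPM and its tunicamycin libraries between 35.0 and 45.6 CPM. The log2 fold change of Scn1a was 0.24, -0.051 and -0.25 in lanes 1, 2 and 3, and -0.091 without DMSO replicate 1, so that these libraries fix no direction.

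Potassium channel pore subunits moved in both directions. Of 12 tested, 5 fell (background 32.5%), 2 rose (background 31.8%) and 5 did not pass, with a median log2 fold change of -0.066. All 16 potassium channel genes summed to 1327 ± 63.4 CPM with DMSO (SD, n = 4) and 1231 ± 23.7 CPM with tunicamycin (SD, n = 6). They overlapped through DMSO replicate 1 alone (1234 CPM), with the other DMSO libraries at 1342 to 1372 CPM and the highest tunicamycin library at 1271 CPM. The members of the Shaker family, which form low-threshold channels of axons and terminals, went opposite ways: Kcna2 fell and Kcna1 and Kcna4 rose.

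Kcna2, a delayed rectifier of axons, had the largest fall after Scn2b (ENSMUSG00000040724, chromosome 3, 107101146 to 107115005, plus strand). Its values with DMSO were 87.6, 106, 102 and 111 CPM, and with tunicamycin Kcna2 ran from 46.8 to 55.4 CPM, with a median of 52.6. Every tunicamycin library was well below every DMSO library. Means were 102 ± 10.2 CPM (SD, n = 4) with DMSO and 52.0 ± 3.55 CPM (SD, n = 6) with tunicamycin, a log2 fold change of -0.98 ± 0.069 (SE; edgeR adjusted p = 4.78e-08), and the 3 lanes alone gave -0.92, -1.05 and -1.04.

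Kcna1, whose protein assembles with that of Kcna2 in axonal channels, rose (ENSMUSG00000047976, chromosome 6, 126640397 to 126646384, minus strand). DMSO libraries stood at 91.5, 111, 101 and 106 CPM, and with tunicamycin Kcna1 ran from 115 to 124 CPM, with a median of 120.2. The groups did not overlap, and DMSO replicate 1 was again the lowest library. The change was a log2 fold change of 0.21 ± 0.044 (SE; edgeR adjusted p = 0.000231), and 0.16 without DMSO replicate 1. Within each library the CPM of Kcna2 was 0.955 to 1.05 of that of Kcna1 with DMSO and 0.393 to 0.473 with tunicamycin, a ratio chosen after the values were seen.

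Kcna4, an inactivating A-type channel of the same family, rose further (ENSMUSG00000042604, chromosome 2, 107290639 to 107298502, plus strand). With DMSO it was at 64.6, 65.6, 62.1 and 66.5 CPM, and with tunicamycin Kcna4 ran from 76.7 to 83.9 CPM, with a median of 79.4. The lowest tunicamycin library was above the highest DMSO library. Means were 64.7 ± 1.90 CPM (SD, n = 4) with DMSO and 79.4 ± 2.59 CPM (SD, n = 6) with tunicamycin, a log2 fold change of 0.29 ± 0.036 (SE; edgeR adjusted p = 3.71e-07). Outside the listed members, and chosen after their values were seen, Kcna3 of this family rose (log2 fold change 0.63) and Kcna6 fell (-0.27).

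Kcnn2, a small-conductance channel opened by calcium that contributes to the after-hyperpolarisation, fell (ENSMUSG00000054477, chromosome 18, 45268860 to 45686024, plus strand). Its DMSO libraries were 40.6, 47.4, 47.6 and 52.2 CPM, and with tunicamycin Kcnn2 ran from 33.5 to 37.1 CPM, with a median of 34.7. The groups did not overlap. For this gene the test gave a log2 fold change of -0.43 ± 0.055 (SE; edgeR adjusted p = 9.03e-07). Part of the exonic sequence of Kcnn2, 8.13%, overlaps another gene, and reads of both cannot be told apart without strand.

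Kcnh1, a channel of the ether-a-go-go family, also fell (ENSMUSG00000058248, chromosome 1, 192190774 to 192510159, plus strand). It was at 37.0, 38.5, 34.2 and 34.8 CPM with DMSO, and with tunicamycin Kcnh1 ran from 25.2 to 33.5 CPM, with a median of 28.8. Here the groups came close, with tunicamycin replicate 5 just under the lowest DMSO library. The change was a log2 fold change of -0.33 ± 0.058 (SE; edgeR adjusted p = 5.58e-05), and by lane it was -0.49, -0.24 and -0.20.

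Hcn2, a cation channel opened by hyperpolarisation, had the highest per-length level of the potassium pore list (ENSMUSG00000020331, chromosome 10, 79716634 to 79736108, plus strand). In DMSO libraries it was at 83.4, 72.5, 77.0 and 71.2 CPM, and with tunicamycin Hcn2 ran from 55.0 to 72.3 CPM, with a median of 64.4. The groups overlapped in tunicamycin replicate 5. The change was a log2 fold change of -0.25 ± 0.062 (SE; edgeR adjusted p = 0.00272), and it went from -0.40 in lane 1 to -0.072 in lane 3. With GC and length offsets it was -0.15. In CPM per kb of exon, Hcn2 (23.8 ± 1.72 with DMSO), the A-type channel Kcnd3 (22.6 ± 0.360) and Kcna1 (21.4 ± 1.75) followed each other with overlapping libraries, and Kcnd2 (15.9 ± 0.548) and Kcna4 (13.4 ± 0.392) came next, each apart from its neighbours. With tunicamycin Kcna1 was at 25.0 ± 0.650 and Hcn2 at 20.1 ± 1.78.

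The A-type channels of dendrites did not pass the test at the TMM scaling. Kcnd2 was at 77.9, 83.0, 81.7 and 84.5 CPM with DMSO and between 75.6 and 85.1 CPM with tunicamycin (log2 fold change -0.027 ± 0.038, edgeR adjusted p = 0.551). Kcnd3 was at 219, 219.7, 213 and 214 CPM and between 210.5 and 220.4 CPM (-0.019 ± 0.028, edgeR adjusted p = 0.584). Both were called lower with GC and length offsets (Kcnd2 -0.11 and Kcnd3 -0.093) and with upper-quartile factors (-0.14 and -0.13).

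The remaining pore genes were small or uncertain. Kcnc1, a channel of fast-spiking neurons, fell by 0.11 on the log2 scale (edgeR adjusted p = 0.0124), with overlapping groups, and lost the call without DMSO replicate 2 (-0.086) or 3 (-0.090), with GC and length offsets (-0.0047) and without a low-count filter (-0.085). Kcnq3, a subunit of the M-current, did not pass (-0.22 ± 0.10, edgeR adjusted p = 0.0950). Its DMSO libraries were at 131, 184, 174 and 179.9 CPM, with replicate 1 far below the others. Without DMSO replicate 1 Kcnq3 was called, at -0.32 (edgeR adjusted p = 3.27e-05), and the authors' deposited table lists it as lower, at -0.22. Kcnh7 and Kcnma1, the large-conductance calcium-activated channel, did not pass, at 0.11 ± 0.14 and 0.042 ± 0.083 (edgeR adjusted p = 0.507 and 0.684). The log2 fold change without DMSO replicate 1 was 0.00051 for Kcnh7 and -0.050 for Kcnma1.

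Of the 4 potassium channel auxiliary genes 2 fell (background 32.5%) and 1 rose (background 31.8%). Kcnab2, a cytosolic beta subunit of Kcna channels, was the most abundant of them per length, with 69.2 ± 1.44% of their summed per-length level with DMSO (SD, n = 4) and 64.6 ± 1.45% with tunicamycin (SD, n = 6). DMSO libraries had 130.4, 123, 143 and 129.7 CPM, and with tunicamycin Kcnab2 ran from 103 to 113 CPM, with a median of 107. The groups did not overlap. For Kcnab2 the fit gave a log2 fold change of -0.30 ± 0.040 (SE; edgeR adjusted p = 8.42e-07). Its window is the one above with the unfolded protein response element. Its relative Kcnab1 fell by 0.15 on the log2 scale (edgeR adjusted p = 0.0158), with overlapping groups. The call of Kcnab1 was lost without DMSO replicate 2 (-0.12, edgeR adjusted p = 0.0724) and without a low-count filter (-0.13). It was lost as well with the replicate number as a block (-0.15, edgeR adjusted p = 0.0523). With GC and length offsets the log2 fold change of Kcnab1 was -0.27.

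The Kcnip proteins are calcium-binding partners of the Kcnd channels. Kcnip1 rose by 0.10 on the log2 scale (edgeR adjusted p = 0.0462) with overlapping groups. The call was lost when any 1 of 6 libraries was left out, among them DMSO replicate 2 (0.068, edgeR adjusted p = 0.194). It was also lost with lane as a term (edgeR adjusted p = 0.0673) and with the replicate number as a block (edgeR adjusted p = 0.111). GC and length offsets (0.027, edgeR adjusted p = 0.598) and DESeq2 (adjusted p = 0.0525) ended the call too. Upper-quartile scaling gave -0.013, and without DMSO replicate 1 the groups did not overlap. Kcnip4 was the lowest tested member, at 7.72, 7.17, 7.52 and 8.34 CPM with DMSO and 6.21 to 7.79 CPM with tunicamycin, and did not pass (-0.091 ± 0.081, edgeR adjusted p = 0.333). Kcnip4 was called lower in 1 of 18 alternatives, with upper-quartile factors (-0.21).

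**Figure D3:**
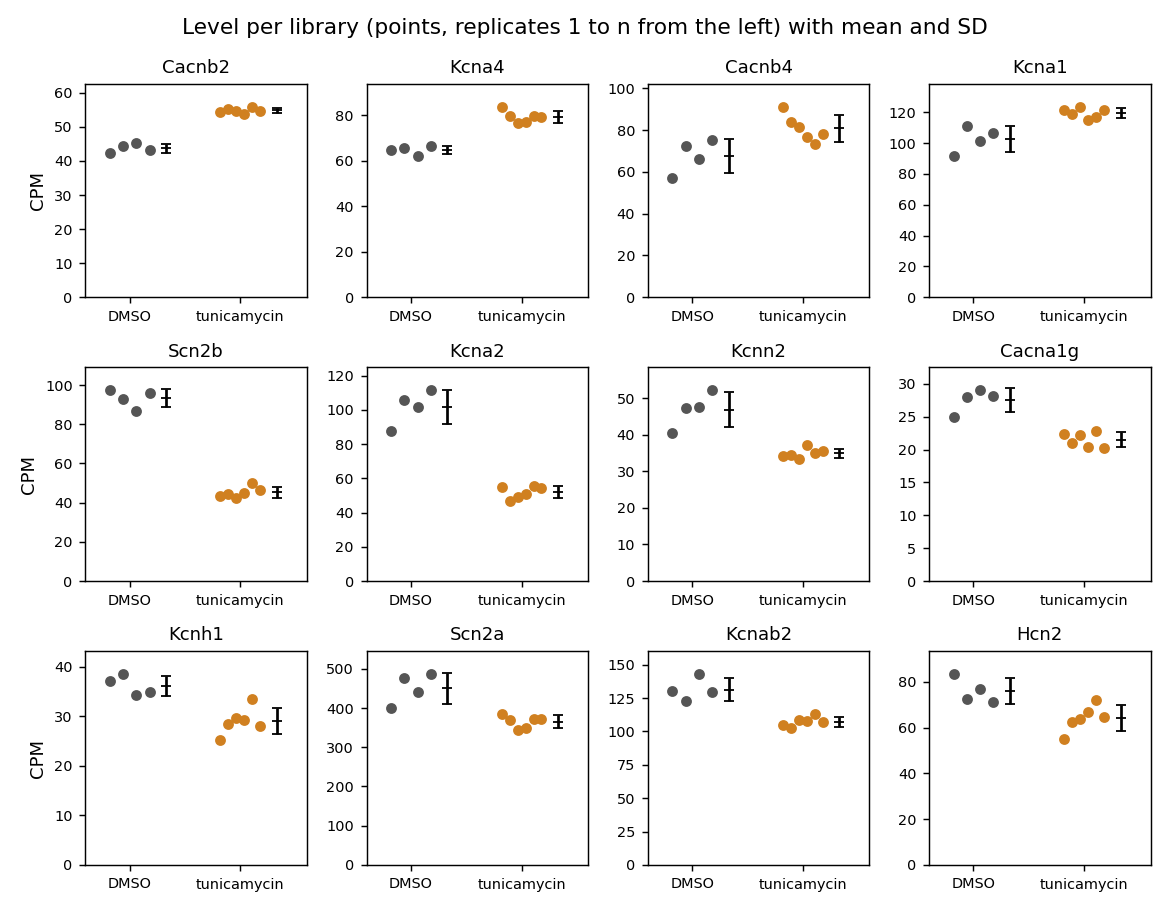
Level in CPM (vertical axis, from 0) of the 4 members with the largest called rises (top row) and the 8 with the largest called falls, in each of 4 DMSO libraries (grey) and 6 tunicamycin libraries (orange), with the mean and SD in black. Groups are apart for Scn2b, at 86.9 to 97.3 CPM against 42.2 to 49.9 CPM, and overlap for Cacnb4 and Hcn2.

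Calcium channel pore subunits fell or did not pass, and none rose. Of 6, 3 fell (background 32.5%), with a median log2 fold change of -0.096. Their summed level was 839.2 ± 49.3 CPM with DMSO (SD, n = 4) and 812.1 ± 19.3 CPM with tunicamycin (SD, n = 6). The overlap came from DMSO replicate 1 alone (778.4 CPM), since the other DMSO libraries were at 837.5 to 899.1 CPM and the highest tunicamycin library at 830.7 CPM. Without that library the median log2 fold change of this class was -0.15. All 13 calcium channel genes summed to 1459 ± 62.7 CPM with DMSO (SD, n = 4) and 1416 ± 21.9 CPM with tunicamycin (SD, n = 6), and again the groups overlapped through DMSO replicate 1 alone.

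Cacna1b, the N-type channel of presynaptic terminals, was the most abundant per length, at 26.2 ± 1.28 CPM per kb of exon with DMSO. DMSO libraries held 245, 268, 273 and 254 CPM, and with tunicamycin Cacna1b ran from 250.4 to 262 CPM, with a median of 256. The tunicamycin values lay inside the DMSO range. The change did not pass (-0.028 ± 0.033, edgeR adjusted p = 0.472). Cacna1b was called lower in 1 of 18 alternatives, with upper-quartile factors (-0.14). Next in per-length level were the P/Q-type Cacna1a (10.4 ± 0.226), the R-type Cacna1e (8.61 ± 0.881) and the L-type Cacna1c (7.74 ± 0.578), of which Cacna1e and Cacna1c overlapped. The L-type Cacna1d (4.14 ± 0.309) and the T-type Cacna1g (2.72 ± 0.179) were lowest.

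Cacna1g, which opens near the resting potential, fell the most of this class (ENSMUSG00000020866, chromosome 11, 94408391 to 94474198, minus strand). It was at 24.9, 28.1, 29.0 and 28.2 CPM with DMSO, and with tunicamycin Cacna1g ran from 20.2 to 22.9 CPM, with a median of 21.6. The groups did not overlap. Across all libraries this was a log2 fold change of -0.36 ± 0.054 (SE; edgeR adjusted p = 4.46e-06). Cacna1a fell by 0.22 on the log2 scale (edgeR adjusted p = 9.68e-06), from a DMSO range of 116 to 122 CPM to a tunicamycin range of 98.8 to 109 CPM, without overlap, and with GC and length offsets its log2 fold change was -0.092. Cacna1d fell by 0.16 on the log2 scale (edgeR adjusted p = 0.00539), with overlapping groups. Its call was lost with the replicate number as a block (-0.15, edgeR adjusted p = 0.075). Cacna1c (0.052 ± 0.040) and Cacna1e (-0.035 ± 0.057) did not pass (edgeR adjusted p = 0.261 and 0.616). Without DMSO replicate 2 Cacna1c was called higher, at 0.095 (edgeR adjusted p = 0.0423). Cacna1e was called lower with upper-quartile factors (-0.15) and with GC and length offsets (-0.085).

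Calcium channel auxiliary subunits went both ways, with 4 lower (background 32.5%), 2 higher (background 31.8%) and 1 not called. Both that rose were cytosolic beta subunits, Cacnb2 and Cacnb4, and their relatives Cacnb1 and Cacnb3 fell. Beta subunits bind the inner loop of the pore subunit and take it to the membrane.

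Cacnb2 had the largest rise of all members at the TMM scaling (ENSMUSG00000057914, chromosome 2, 14603088 to 14987908, plus strand). DMSO libraries were tight, at 42.2, 44.3, 45.2 and 43.2 CPM, and with tunicamycin Cacnb2 ran from 53.9 to 56.0 CPM, with a median of 54.8. Both groups were narrow and far from overlapping. Means were 43.7 ± 1.28 CPM (SD, n = 4) with DMSO and 54.9 ± 0.728 CPM (SD, n = 6) with tunicamycin, a log2 fold change of 0.32 ± 0.035 (SE; edgeR adjusted p = 6.57e-08), and by lane it was 0.35, 0.25 and 0.34. With GC and length offsets it was 0.19, below that of Kcna4 (0.21). Some of its exonic bases, 7.32%, overlap another gene.

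Cacnb3 was the most abundant calcium auxiliary transcript per length (27.1 ± 1.44 CPM per kb with DMSO) and fell. Its DMSO libraries held 116, 103, 109.7 and 105 CPM, and with tunicamycin Cacnb3 ran from 90.3 to 99.9 CPM, with a median of 93.7. There was no overlap. The fall was a log2 fold change of -0.21 ± 0.037 (SE; edgeR adjusted p = 2.86e-05), and -0.13 with GC and length offsets. Cacnb2 had 0.364 to 0.429 of the CPM of Cacnb3 in DMSO libraries and 0.561 to 0.603 in tunicamycin libraries, a ratio chosen after the values were seen. Cacnb2 made up 3.77 ± 0.0790% of the per-length level of this class with DMSO (SD, n = 4) and 4.97 ± 0.0473% with tunicamycin (SD, n = 6).

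Cacnb4 is less certain (ENSMUSG00000017412, chromosome 2, 52428320 to 52676831, minus strand). DMSO libraries were at 57.0, 72.4, 66.4 and 75.3 CPM, and with tunicamycin Cacnb4 ran from 73.5 to 91.3 CPM, with a median of 79.9. The lowest tunicamycin library, replicate 5, lay below DMSO replicate 4. Over all libraries it had a log2 fold change of 0.24 ± 0.084 (SE; edgeR adjusted p = 0.0258). It was 0.44 and 0.23 in lanes 1 and 2 and -0.0067 in lane 3. The call was lost without DMSO replicate 3 (0.24, edgeR adjusted p = 0.0603) and with lane as a term (edgeR adjusted p = 0.0507). It was also lost with the replicate number as a block (0.29, edgeR adjusted p = 0.0553), with GC and length offsets (0.10, edgeR adjusted p = 0.0606) and with upper-quartile scaling (0.13). Of its exonic bases 16.0% overlap another gene, the largest share among the members. Cacnb1 fell by 0.10 on the log2 scale (edgeR adjusted p = 0.0264). The call of Cacnb1 was lost without DMSO replicate 3 (-0.080) or tunicamycin replicate 1 (-0.074), with GC and length offsets (-0.021) and without a low-count filter (-0.080).

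The Cacna2d proteins are anchored at the outer face of the membrane and carry calcium channels to terminals. Cacna2d2 fell by 0.24 on the log2 scale (edgeR adjusted p = 0.000475), from 21.9 to 25.2 CPM with DMSO to 18.8 to 21.3 CPM with tunicamycin, without overlap. Cacna2d1, the target of gabapentin, fell by 0.14 on the log2 scale (edgeR adjusted p = 0.0166). The call was lost without DMSO replicate 2 (-0.11) or 4 (-0.11), and with the replicate number as a block (-0.11, edgeR adjusted p = 0.130). With GC and length offsets the log2 fold change of Cacna2d1 was -0.26, and without DMSO replicate 1 its groups did not overlap. Cacna2d3 did not pass (-0.012 ± 0.032, edgeR adjusted p = 0.764), with 102, 96.6, 102 and 96.9 CPM with DMSO and 96.6 to 101 CPM with tunicamycin. Cacna2d3 was called lower with upper-quartile factors (-0.13) and with GC and length offsets (-0.088).

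**Figure D4:**
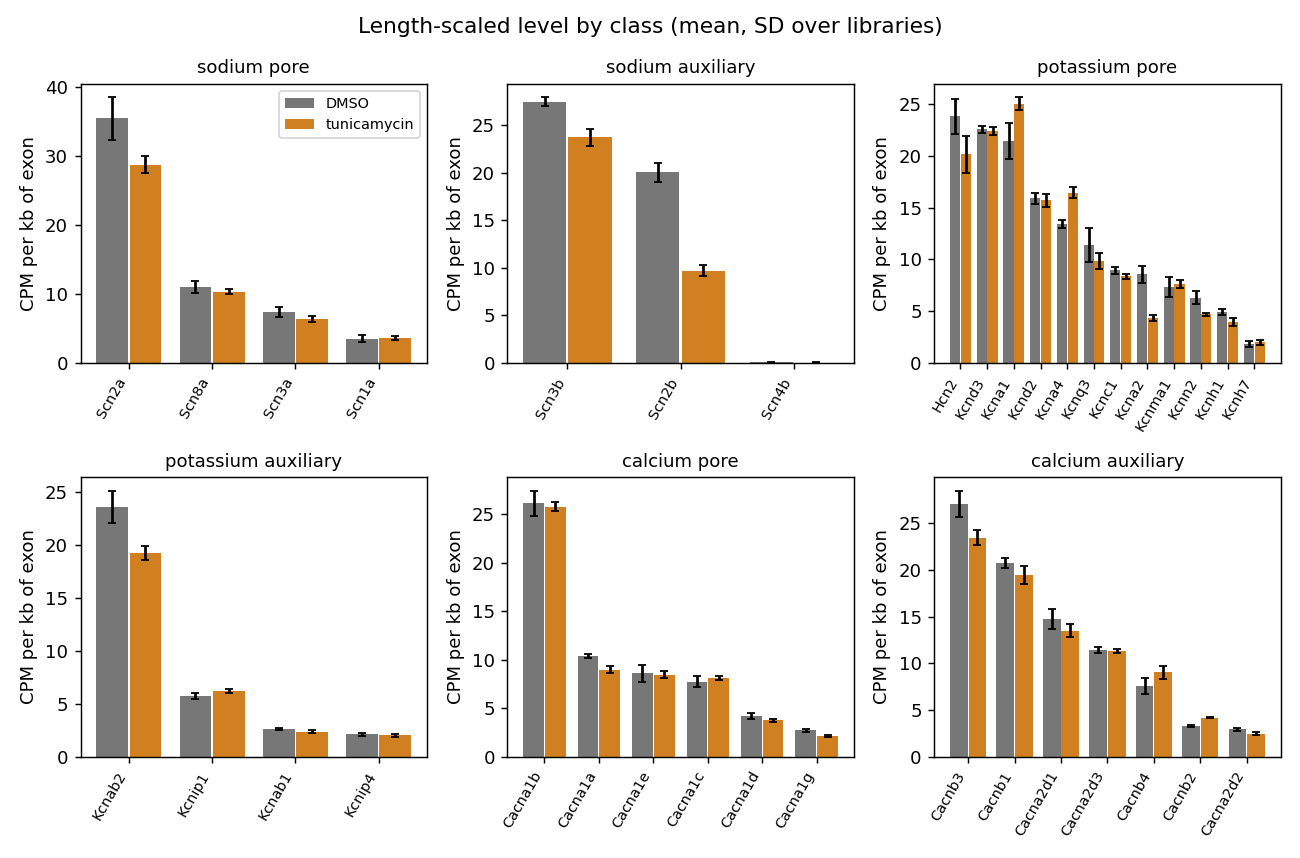
Level in CPM per kb of exon (vertical axis, from 0) of all 36 members by ion and subunit role, in order of the DMSO level, with bars for the mean of 4 DMSO (grey) and 6 tunicamycin libraries (orange) and the SD as error bars. Scn2a (35.4 with DMSO), Scn3b (27.5), Cacnb3 (27.1) and Cacna1b (26.2) are the tallest of their classes, and Scn4b is near 0.

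Auxiliary subunits were also compared by where they are made, a grouping chosen after the values were seen. Of the 5 tested membrane auxiliary genes (Scn2b, Scn3b and the Cacna2d genes) 4 fell and none rose (median -0.22). Of the 8 cytosolic ones 4 fell and 3 rose, with a median of -0.096, and over all genes tested 32.5% fell and 31.8% rose. Of the cytosolic rises, Kcnip1 was called in 7 of 18 alternatives, Cacnb4 in 13 and Cacnb2 in all 18. Of the cytosolic falls, Cacnb1 was called in 14, Kcnab1 in 15, and Kcnab2 and Cacnb3 in all 18. Of the membrane falls, Cacna2d1 was called in 15 and the others in all 18. The difference between the membrane and cytosolic groups was not tested.

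Gene structure and base composition are given beside the direction of change. Across the 35 tested members the log2 fold change correlated with the GC percentage of the longest transcript at r = -0.295 (Spearman's rho = -0.459) and with the log2 genomic span at r = 0.309 (rho = 0.327). Over 15620 tested genes with a value the same correlations were -0.111 (rho = -0.14) and 0.059 (rho = 0.088). Genes are not independent replicates, and all points share the same 10 libraries. Among members spanning 10 to 30 kb 6 of 6 fell, among those of 30 to 100 kb 3 of 3, among those of 100 to 300 kb 6 of 10 fell and 1 rose, and among those over 300 kb 4 of 14 fell and 2 rose. Over all tested genes 32.5% fell and 31.8% rose, and the shares of genes called within each span class were not compared. The members that rose were Kcna1 and Kcna4, under 10 kb long, and 3 genes of over 100 kb.

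Other genes of the same systems, from lists that share no gene with the members, are given by their counts. Of 6 other sodium channel genes tested 3 fell and none rose (median log2 fold change -0.090), the largest fall being that of Scn9a (-0.53). Of 40 other voltage- or calcium-gated potassium channel genes 17 fell and 7 rose (median -0.14). Kcnt2, a sodium-activated channel, rose the most (0.77), and Kcnv1, a silent subunit, fell the most (-0.85). Of 12 other calcium channel genes 6 fell and 2 rose (median -0.14), between Cacna2d4 (-0.996) and Cacng3 (0.80), whose protein is also an auxiliary subunit of AMPA receptors. Background shares for each count are 32.5% lower and 31.8% higher.

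Potassium channels without a voltage sensor, the inward rectifiers and two-pore channels, were called in 42.1% of 19 tested cases (background 64.3%): 5 fell and 3 rose (median -0.041). Kcnj2, an inward rectifier, rose by 0.94 on the log2 scale, and Kcnj10, the main inward rectifier of astrocytes, fell (log2 fold change -1.50), at 127.3 ± 13.2 CPM (SD, n = 4) with DMSO and 45.1 ± 5.17 CPM (SD, n = 6) with tunicamycin, beside the falls of the astrocyte markers. Of 19 genes that anchor channels at the axon initial segment or regulate them 12 fell and 2 rose (median -0.16). Dlg1, a scaffold protein, rose by 0.64 on the log2 scale, and Fgf11, a sodium channel binding protein, fell by 0.53 on the log2 scale. The other rise was of Rest (0.46), a repressor of neuronal genes that include channels.

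The authors' deposited tables list 4 members as higher and 21 as lower. None of them has the opposite sign here, 1 member called here (Kcnip1) is in neither table, and 1 listed there (Kcnq3) was tested and not called here.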

How the data were processed

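Polyadenylated RNA of 4 DMSO and 6 tunicamycin libraries was sequenced as 50 bp single ends from a kit that does not mark strand, per the labels' protocols. The submitters' processing notes name, without roles, the aligner STAR 2.5.2b, Subread 1.5.1 with featureCounts, FastQC 0.11.5, DESeq2 and the build mm10. Annotation release, strand setting and multi-mapping rule: not given in the sources used here. Per library, the authors deposited whole-number counts for 48709 Ensembl identifiers, 48349 of which matched GENCODE M21 (GRCm38, of which mm10 is another name). The authors also deposited tables of called genes with a log2 fold change, an adjusted p-value and a signal per library, which equalled the counts divided by 1 factor per library for 100% of listed genes, within a relative tolerance of 1e-4.

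Groups follow the titles. The edgeR quasi-likelihood test (edgeR 4.0.16, R 4.3.3, TMM, filterByExpr, robust, two-sided) was fitted to 15660 genes in all 10 libraries, and a gene was called at a Benjamini-Hochberg adjusted p under 0.05 over all of them. The standard error is the log2 fold change divided by the square root of F. CPM are counts scaled to 1e+06 per library, and CPM per kb divides by the union of annotated exons, which understates genes with long rare exons. No library repeated another (chi-square per degree of freedom 2.17 to 10.3 within groups). The code was checked on simulated counts with a small share of genes changed, as many up as down. Such a check does not test the choice of scaling. Sequencing lane was read from the deposited file names. Alternatives were DESeq2 1.42.0, RLE and upper-quartile factors, 2 other filters, lane as a term or alone, the replicate number as a block, GC and length offsets, and leaving out each library.

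The members and lists were chosen with earlier results of these data known. The naming rule gives library values for the 4 largest rises, the 8 largest falls and the most abundant gene per length of each class, and the largest rise and fall of each other list. Other members whose library values are given were chosen after their values were seen. Of the context and marker genes 1 symbol, Kcne5, matched no identifier.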

Additional observations from a re-analysis of the deposited data

Results flagged for a closer look

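Over 92 groups of values examined (36 members, and their sums in all, by ion and by class, in both treatments), 3 held a library far from the others of its group, and chance flags about 1 in 20 groups. Cacna1d was at 50.8 CPM in tunicamycin replicate 1, with the other 5 tunicamycin libraries between 45.7 and 47.3 CPM. Cacnb1 was at 97.8 CPM in DMSO replicate 3, with the other 3 DMSO libraries between 92.2 and 93.2 CPM. The summed level of the calcium channel auxiliary genes was 596.9 CPM in DMSO replicate 1, with the other 3 DMSO libraries between 624.9 and 628.4 CPM.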

How the results depend on the processing

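Of the 24 called members, 15 were called under all 18 alternatives that give a test (3 higher: Kcna1, Kcna4 and Cacnb2; 12 lower), and 23 kept their sign in lanes 1, 2 and 3 alone, the exception being Cacnb4 (-0.0067 in lane 3). The count of members called higher, 5, was 3 with upper-quartile factors, with lane as a term, with the replicate block and with GC and length offsets, and 3 to 5 when 1 library was left out. The members' median log2 fold change, -0.11, was -0.22 with upper-quartile factors, -0.041 in lane 1, -0.17 in lane 2, and -0.16 to -0.099 when 1 library was left out. No pairing by replicate number was seen: same-numbered libraries correlated in their deviations at -0.22 to 0.0085. These deviations include the opposite length patterns of DMSO replicate 1 and tunicamycin replicate 1, so the correlations cannot exclude pairing. With the replicate block 17 members and 8847 genes were called, against 24 and 10065.

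Direction changed for some members that were not called. With upper-quartile factors these were Scn1a (-0.10), Kcnh7 (-0.0011), Kcnma1 (-0.073) and Cacna1c (-0.062). With GC and length offsets they were Scn1a (-0.11), Kcnh7 (-0.011) and Kcnma1 (-0.053), and with no low-count filter Kcnd3 (0.0019) and Cacna2d3 (0.0088). Kcnip1, called higher in the main fit at 0.10, also changed direction, to -0.013 with upper-quartile factors. When 1 library was left out, Scn1a ranged from -0.091 to 0.085, Kcnma1 from -0.050 to 0.098, Cacna1e from -0.088 to 0.029 and Cacna2d3 from -0.027 to 0.0022. The cause was not tested. With GC and length offsets 11 called members moved by over 1.5 times without changing sign, and upper-quartile factors shifted every tested member by -0.11 to -0.12. Of the 11 members not called, 7 were called lower with upper-quartile factors and 5 with GC and length offsets. Depth limits Scn4b, at 0 to 11 counts.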
